A study of Mus musculus with 6 samples.

Results

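Transcripts of 8 genes of gluconeogenesis and glyceroneogenesis were followed in irradiated and untouched mouse femur. The genes are Pck1, Pck2, Pcx, Fbp1, Fbp2, G6pc3, Aqp7 and Gpd1, taken by their symbols from a table of 43346 genes, and all 8 were found in it. They were chosen with the difference between radiated and non-radiated femur already known, Pck1 having been among the largest rises. Their differences between the groups, and whether the fit of all genes called them, are therefore given as a description and support nothing by themselves. The animals were C57BL/6 mice aged 4 months, an inbred laboratory strain. In the radiated group, 3 libraries, the right femur had received 24 Gy of focal X-rays over 5 mm of distal metaphysis, the end of the shaft beside the growth plate. The non-radiated group, 3 libraries, was the left femur, which took no beam but came from mice that had been irradiated in the other leg. RNA came from homogenized pieces of this region, freed of muscle, on day 21, a time set before the bone loss seen on day 28. Values of a group's 3 libraries are given below in the order of their replicate numbers. The labels do not say that the 3 libraries of a group came from 3 mice, so p-values measure the spread between these libraries, which may be partly technical.

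Gluconeogenesis builds glucose from pyruvate, lactate and amino acids by running glycolysis backwards, with separate enzymes at the steps that run one way only. Pyruvate carboxylase (Pcx) makes oxaloacetate, and phosphoenolpyruvate carboxykinase turns it into phosphoenolpyruvate, in the cytosol (Pck1) or in mitochondria (Pck2). Fructose bisphosphatase (Fbp1 in liver and kidney, Fbp2 in muscle) and glucose-6-phosphatase complete the route. Liver and kidney release glucose, but fat cells use the first steps for glyceroneogenesis, in which Pck1 supplies the carbon for glycerol 3-phosphate, the backbone of stored triglyceride. Gpd1 makes that glycerol 3-phosphate from a glycolytic intermediate, and Aqp7 is the channel through which fat cells let glycerol out.

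Total gene counts per library were 34034251 to 48708383. A single row, AY036118, took 32.94% of the counts in non-radiated library 2 and 0.32% to 5.61% in the others, which left fewer counts for the 8 genes there. The labelled tissue, femur, was checked against bone and marrow markers, and their summed levels in the 6 libraries, in CPM (a gene's counts per size of its library, scaled by TMM, the trimmed mean of M-values) were 1022 to 1406 for 3 osteoclast genes, 11280 to 18250 for 7 neutrophil lineage genes and 14470 to 18600 for 4 erythroid genes, and none of these genes was at 0. The 7 osteoblast markers, none at 0 either, summed to 4517 to 6856 CPM in the non-radiated and to 3366 to 4260 CPM in the radiated libraries. Col1a1 made up most of these sums, at 5435, 4079 and 6185 CPM against 3767, 2984 and 3507 CPM. Col1a1 (-0.61) and Phex (-1.04, log2 fold changes) were called lower. Bglap, Ibsp, Sp7, Dmp1 and Alpl overlapped between the groups and were not called, and Alpl was at 0.08. The 7 macrophage markers, likewise none at 0, summed to 744 to 804.5 CPM and to 922.5 to 1081 CPM. Of these, 6 were higher without overlap and 4 were called higher, Adgre1 (0.42), Cd68 (0.43), C1qa (0.57) and C1qb (0.60). Over all tested genes the shares were 14.4% higher without overlap and 4.56% called higher. The part of either cell type in the results below was not tested. Skeletal muscle transcripts differed among the radiated libraries. The 15 muscle markers summed to 222, 386 and 191 CPM without radiation and to 857, 2796 and 222 CPM after it. Radiated library 3 therefore lay inside the non-radiated range, and radiated library 2 far above it. Muscle markers are given below beside the genes they move with. The 6 hepatocyte markers summed to 0.0472 to 0.165 CPM, with 3 or 4 of the 6 at 0 in each library.

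In the fit of all genes with edgeR, 7 of the 8 genes passed the filter on low counts, each in all 3 libraries of both groups, and Fbp2 did not. Pck1, Aqp7 and Gpd1 were called higher in radiated femur at an adjusted p under 0.05, and Pck2, Pcx, Fbp1 and G6pc3 were not called. Of all 18757 tested genes 7.8% were called, 4.56% higher and 3.24% lower. Normalised values did not overlap between the groups for 4 of the 7 genes, 3 higher and 1 lower, and for 25.9% of all tested genes (14.4% higher and 11.5% lower). Since the genes were chosen on this contrast, nothing is read from their share.

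**Figure D1:**
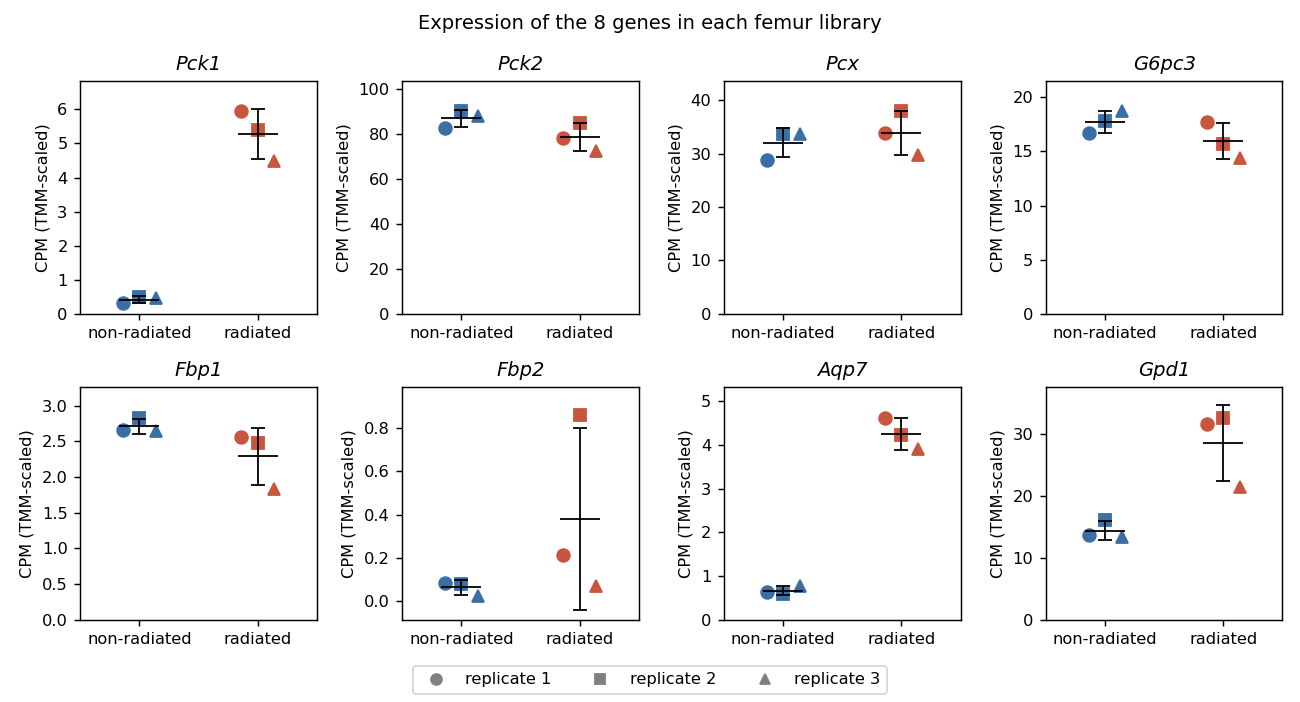
Level of each of the 8 genes in CPM (TMM-scaled, linear axis) in 3 non-radiated (blue) and 3 radiated (red) libraries; the symbol gives the replicate number, the black bar the mean and the whiskers 1 SD. Pck1, Aqp7 and Gpd1 are higher in the radiated libraries without overlap, Fbp1 is lower by a small margin, Fbp2 is highest in radiated library 2, and in the other 3 panels the groups overlap.

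Pck1 (ENSMUSG00000027513, chromosome 2, 173153048 to 173159273, build mm10), the cytosolic carboxykinase that commits carbon to both routes, was nearly silent in the non-radiated femur. It had 11, 12 and 19 counts there, and 225, 288 and 200 counts in the radiated femur. In CPM these were 0.302, 0.479 and 0.448 against 5.94, 5.39 and 4.48. Every radiated library lay above every non-radiated one, and the gap was wide. The highest non-radiated value has an exact 95% Poisson interval of 0.248 to 0.837 CPM and the lowest radiated value one of 3.88 to 5.15 CPM, which cover counting error only. Mean levels were 0.410 ± 0.0948 and 5.27 ± 0.738 CPM (SD, n = 3 each), a 12.9-fold difference, log2 3.69 with SE 0.22, which ranked 12 of 18757 tested genes from the top. By replicate number, radiated minus non-radiated was 4.30, 3.49 and 3.32 on the log2 scale for numbers 1, 2 and 3. Radiated library 3, whose muscle markers were at the non-radiated level, had 4.48 CPM of Pck1. With the muscle markers as a covariate the log2 fold change was 3.55. In bulk tissue, more cells of a type and more RNA per cell cannot be told apart, here and for the genes below.

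Aqp7 (ENSMUSG00000028427, chromosome 4, 41033074 to 41048139), the glycerol channel, was also low in all non-radiated libraries. It had 23, 15 and 33 counts without radiation and 175, 225 and 174 after it, or 0.631, 0.599 and 0.779 CPM against 4.62, 4.21 and 3.90 CPM. The groups did not overlap, and the radiated values spread by less than those of Pck1. The means were 0.669 ± 0.0959 and 4.25 ± 0.363 CPM (SD, n = 3 each), a 6.25-fold difference, log2 2.64 with SE 0.18. The differences by replicate number were 2.87, 2.82 and 2.32 on the log2 scale.

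Gpd1 (ENSMUSG00000023019, chromosome 15, 99717515 to 99725005), the cytosolic glycerol 3-phosphate dehydrogenase, was already well expressed without radiation. It was at 13.7, 16.1 and 13.4 CPM without radiation and at 31.5, 32.6 and 21.5 CPM after it. Radiated library 3 was the lowest of its group yet above all non-radiated libraries. The means were 14.4 ± 1.46 and 28.5 ± 6.13 CPM (SD, n = 3 each), a 1.99-fold difference, log2 0.99 with SE 0.15. Gpd1 is also a gene of glycolytic muscle. Its log2 fold change was 0.68 with the muscle markers as a covariate and 0.88 without radiated library 2, and the call stood in both. An antisense gene, Gm16537, overlaps its exons and had 3 to 13 counts in a library, where Gpd1 had 402 to 1740. The strand setting of the counting is not given, so the effect of this overlap on the counts of Gpd1 is not known.

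The start regions of these genes are shown because Pck1 and Aqp7 were higher together while Pck2, which catalyses the same reaction as Pck1, was not. RefSeq (GRCm38.p6) gave windows of 250 bases before to 50 bases after a start for 7 of the 8 genes, 9 windows in all, and none for Gpd1. Capitals mark matches, on either strand, to ACGTCA (the core of the cAMP response element), AGGTCA (a nuclear receptor half-site, TGACCT on the other strand) and CCAAT, and no matches overlap in the windows shown.
Pck1 (chr2:173152823-173153122, plus strand): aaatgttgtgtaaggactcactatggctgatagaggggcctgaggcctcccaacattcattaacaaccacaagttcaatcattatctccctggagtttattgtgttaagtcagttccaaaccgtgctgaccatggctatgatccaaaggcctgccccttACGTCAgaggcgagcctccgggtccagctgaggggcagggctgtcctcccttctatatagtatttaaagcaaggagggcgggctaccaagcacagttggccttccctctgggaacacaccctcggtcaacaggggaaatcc
Aqp7 (chr4:41048087-41048386, minus strand): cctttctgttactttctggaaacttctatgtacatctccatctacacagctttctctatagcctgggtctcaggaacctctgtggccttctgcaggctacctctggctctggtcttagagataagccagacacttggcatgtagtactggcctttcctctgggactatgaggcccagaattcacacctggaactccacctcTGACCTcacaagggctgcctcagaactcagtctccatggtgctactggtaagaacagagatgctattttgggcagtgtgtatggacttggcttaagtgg
Pck2 (chr14:55540016-55540315, plus strand): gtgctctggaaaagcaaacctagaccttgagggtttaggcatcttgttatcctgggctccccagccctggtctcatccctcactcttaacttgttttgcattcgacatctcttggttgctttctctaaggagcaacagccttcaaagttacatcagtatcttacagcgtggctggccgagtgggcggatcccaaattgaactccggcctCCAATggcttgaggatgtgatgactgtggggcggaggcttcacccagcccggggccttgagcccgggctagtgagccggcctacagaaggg

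Pck1 was the single gene of the 7 with ACGTCA, which begins 91 bases before its start. The promoter of Pck1 is known for a cAMP response element through which fasting hormones act in liver. This core was in 1 of the 9 windows, and it is found in 7.51% of 32851 windows of the same length in the RefSeq table. AGGTCA was matched in Aqp7 and in the second start window of Pcx, in 3 of the 9 windows, against 16.3% of all windows. The windows of Aqp7 overlap each other. CCAAT was matched in 3 of the 7 genes, Pck2, Pcx and Fbp1, in 4 of the 9 windows, against 37.4% of all windows. A match is a run of letters and no evidence of binding.

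Pck2 (ENSMUSG00000040618, chromosome 14, 55540266 to 55550017), the mitochondrial carboxykinase, had the highest CPM of the 8 genes in both groups. It was at 82.5, 90.0 and 88.0 CPM without radiation and at 78.0, 84.9 and 72.4 CPM after it. The groups overlapped. Its log2 fold change was -0.15 (SE 0.07) and became 0.05 when libraries were scaled by their totals alone. Per kilobase of deposited gene length, Pck1 stood at 0.00363, 0.00528 and 0.00505 of the level of Pck2 without radiation, and at 0.0755, 0.0630 and 0.0614 after it. These ratios use 3400 bases for Pck2, and would be larger with the 7806 bases of its exons in GENCODE M21. The mitochondrial form thus stayed the main carboxykinase transcript in all 6 libraries.

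Pcx (ENSMUSG00000024892, chromosome 19, 4510472 to 4621752), which feeds oxaloacetate to both carboxykinases, was at 28.9, 33.6 and 33.7 CPM without radiation and at 33.9, 37.9 and 29.7 CPM after it. The groups overlapped, and radiated library 3 was lower than 2 of the non-radiated libraries. Its log2 fold change of 0.08 (SE 0.10) turned to -0.01 without radiated library 2 and to -0.09 with the muscle covariate. Lrfn4 lies within its span on the opposite strand, with no shared exon in GENCODE M21.

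G6pc3 (ENSMUSG00000034793, chromosome 11, 102189620 to 102194081) encodes the widely expressed glucose-6-phosphatase, which neutrophils need for normal function. It was at 16.7, 17.9 and 18.7 CPM without radiation and at 17.7, 15.7 and 14.4 CPM after it. The groups overlapped through radiated library 1, with a log2 fold change of -0.16 (SE 0.10) that became 0.04 under library totals alone. The liver and kidney form, G6pc, had 2 counts in radiated library 1 and was at 0 in the other 5, and the islet form, G6pc2, was at 0 in all 6. The 7 neutrophil lineage markers were lower in each radiated library, at 11280 to 13180 CPM in sum against 14090 to 18250, with none of the 7 called, and their part in the values of G6pc3 was not tested.

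Fbp1 (ENSMUSG00000069805, chromosome 13, 62864753 to 62888282) was at 2.66, 2.84 and 2.64 CPM without radiation and at 2.56, 2.47 and 1.84 CPM after it. It was the 1 gene of the 7 tested whose radiated values were all lower, but radiated library 1 fell short of the lowest non-radiated library by little. Its log2 fold change was -0.24 (SE 0.17), not called.

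Fbp2 (ENSMUSG00000021456, chromosome 13, 62836884 to 62858400), the muscle bisphosphatase beside Fbp1 on the chromosome, had 3, 2 and 1 counts without radiation and 8, 46 and 3 counts after it. Only radiated library 2, at 0.861 CPM with an exact 95% Poisson interval of 0.631 to 1.149, stood clear of the rest, and it was also the library with the most muscle transcripts. Radiated library 1 was second in both measures, and radiated library 3 (0.0672 CPM) lay within the non-radiated range of 0.0236 to 0.0823 CPM. With no filter on low counts edgeR put Fbp2 at 2.69 ± 0.81 in log2 units (± SE) and called it, and this became 1.17 without radiated library 2 and 0.19 with the muscle covariate, neither called. These last 2 fits were chosen after the data were seen, and the part of muscle in the values of Fbp2 was not tested.

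Levels can be ordered between genes only per length, in CPM per kilobase of the gene length in the deposited table. For Pck2 that length was 3400 bases, while its exons in GENCODE M21 cover 7806. Its level per kilobase, and its distance from the next gene, therefore rest on the deposited length. In non-radiated femur the means (± SD, n = 3) were 25.5 ± 1.13 for Pck2, 7.98 ± 0.453 for G6pc3, 7.50 ± 0.643 for Pcx, 4.86 ± 0.491 for Gpd1, 1.59 ± 0.0623 for Fbp1, 0.237 ± 0.0339 for Aqp7, 0.120 ± 0.0277 for Pck1 and 0.0467 ± 0.0251 for Fbp2. G6pc3 and Pcx overlapped, and the other neighbours did not. In radiated femur the order became Pck2 (23.1 ± 1.85), Gpd1 (9.63 ± 2.07), Pcx (7.92 ± 0.959), G6pc3 (7.16 ± 0.744), Pck1 (1.54 ± 0.215), Aqp7 (1.501 ± 0.128), Fbp1 (1.35 ± 0.232) and Fbp2 (0.287 ± 0.319). Gpd1 overlapped Pcx, Pcx overlapped G6pc3, and the ranges of Pck1, Aqp7 and Fbp1 overlapped one another. Pck1 was below Fbp1 in each non-radiated library and above it in each radiated one, where Pck1 was at 1.733, 1.573 and 1.307 and Fbp1 at 1.505, 1.452 and 1.080.

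**Figure D2:**
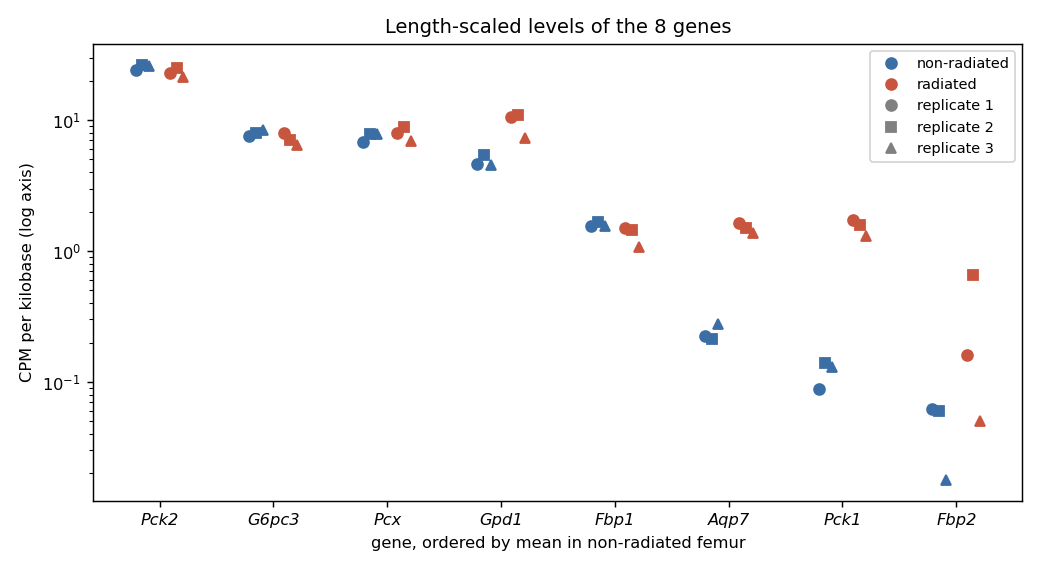
Level per gene length (CPM per kilobase, log axis) of the 8 genes, ordered by their mean in non-radiated femur; each point is a library, blue non-radiated and red radiated, with the symbol giving the replicate number. By deposited gene length Pck2 is highest in both groups, while Pck1 and Aqp7 go from means of 0.120 and 0.237 to 1.54 and 1.501.

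Pck1, Aqp7 and Gpd1 are genes of white fat, so the other fat cell markers are given beside them. The 10 white adipocyte markers summed to 248 to 281 CPM in the non-radiated and to 472 to 660 CPM in the radiated libraries. None was at 0. All 10 were higher without overlap, against 14.4% of all tested genes, and 9 were called higher, against 4.56%. Lep had 5, 3 and 3 counts without radiation and passed the filter on low counts only through the radiated libraries. Nothing is therefore read from its call or its fold change. Most of each sum came from Lpl (104.4 to 122.1 CPM against 213.9 to 268.1), Fabp4 (57.98 to 72.19 against 85.3 to 99.85) and Car3 (44.76 to 68.32 against 79.39 to 168.3). The macrophage sum given above was also higher in every radiated library. The white adipocyte markers fell in 2 ranges. Cidec, Lep, Plin1, Plin4 and Cfd were at log2 fold changes of 3.96, 3.77, 3.60, 3.16 and 3.03. Car3, Lpl, Adipoq, Retn and Fabp4 were at 1.21, 1.08, 1.02, 0.59 and 0.54. The value of Pck1 lay among the first 5 and that of Gpd1 among the others, with Aqp7 between. Relative to Adipoq, the adiponectin gene, and per kilobase, Pck1 was at 0.00673 to 0.0129 in the non-radiated and 0.0617 to 0.0668 in the radiated libraries. The same ratio for Aqp7 was 0.0171 to 0.0231 and 0.0582 to 0.0704. For Gpd1 it was 0.354 to 0.499 and 0.370 to 0.437, so Gpd1 kept its proportion to Adipoq within the spread. Pck1 and Aqp7 did not. This holds for Adipoq alone, whose log2 fold change of 1.02 was in the lower range. Ratios to Cidec and Plin1, whose fold changes of 3.96 and 3.60 lay on either side of that of Pck1, were not taken. How much of each difference came with the number of fat cells was not tested. The 4 brown fat markers summed to 0.110, 0.799 and 0.425 CPM without radiation and to 1.03, 6.85 and 0.560 CPM after it, and their part was not tested. Cox8b made up most of the radiated sums, at 0.977, 6.54 and 0.359 CPM against 0.0274, 0.639 and 0.165 CPM, overlapped between the groups and was not called. Its order among the radiated libraries was that of the muscle markers. Cidea was above 0 in radiated libraries 2 and 3 alone (0.150 and 0.0224 CPM), and Ucp1, the defining gene, in non-radiated library 3 alone (0.0944 CPM).

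**Figure D3:**
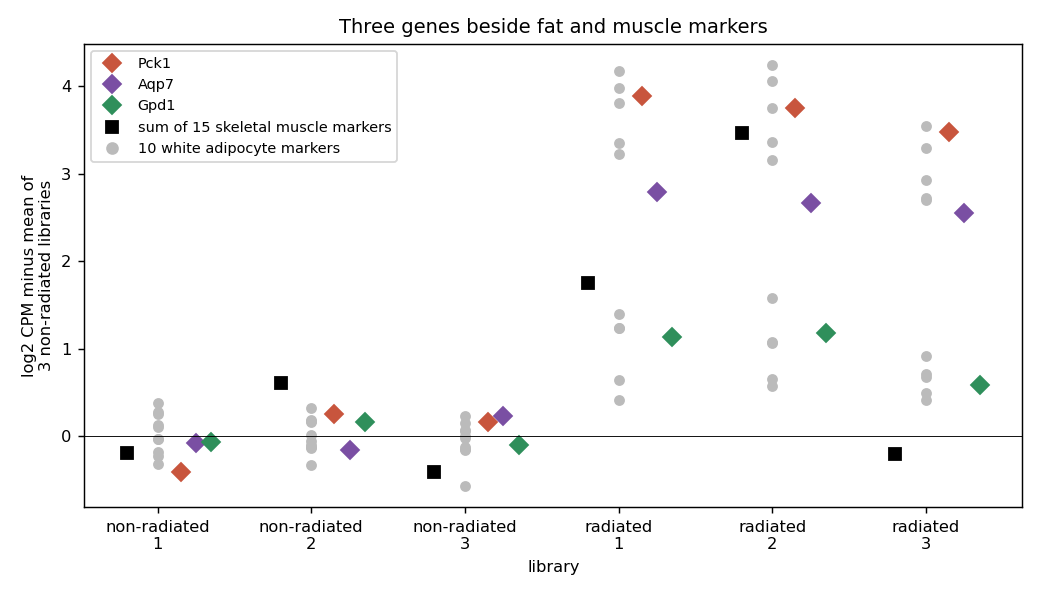
Log2 CPM minus the mean of the 3 non-radiated libraries, per library, for Pck1, Aqp7 and Gpd1 (diamonds), 10 white adipocyte markers (grey dots) and the sum of 15 skeletal muscle markers (black squares). In radiated library 3 the muscle sum is back at the non-radiated level, while the diamonds stay above it.

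The genes whose profile was most like that of Pck1 were ranked by the root mean square difference of log2 CPM over the 6 libraries, each profile centred on its mean, among tested genes of at least 1 CPM on average. Nearest was Eda2r, a receptor gene of the p53 response, at 0.128 log2 units. Klhdc7a (0.194), A530016L24Rik (0.216), the lipid droplet gene Cidec (0.249) and Cfd, which encodes adipsin (0.307), came next. These 5 genes spanned 0.0823 to 4.93 CPM in the non-radiated and 1.75 to 39.2 CPM in the radiated libraries. Eda2r itself was at 0.576, 0.838 and 0.708 CPM without radiation and at 8.19, 7.75 and 7.24 CPM after it. For Aqp7 the nearest gene was Phlda3 (0.198) and for Gpd1 it was Rarres2, the chemerin gene (0.0944). With 6 libraries in 2 groups, genes with a like difference between the groups score as alike.

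**Figure D4:**
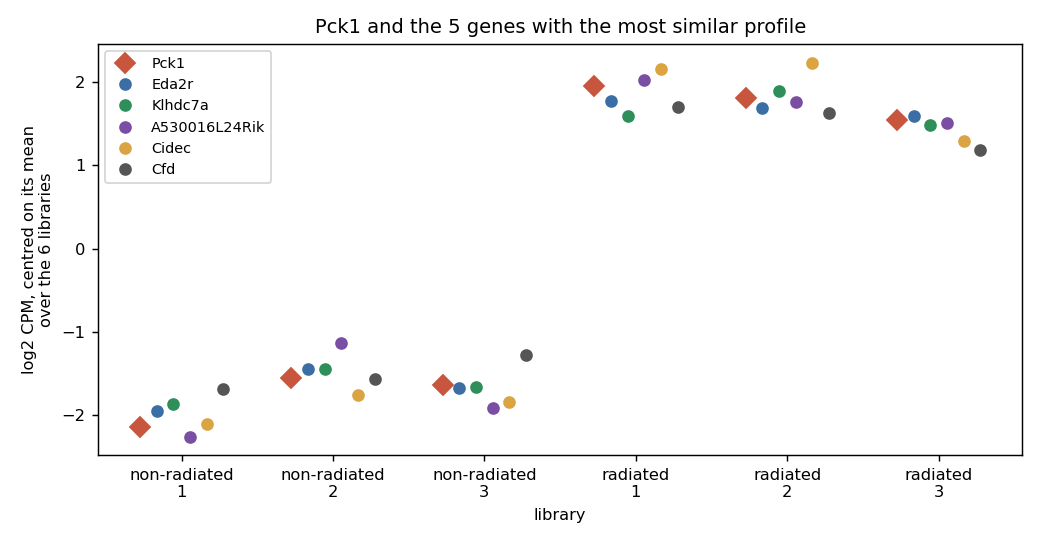
Log2 CPM of Pck1 (diamonds) and of the 5 genes with the smallest root mean square difference to it, each centred on its mean over the 6 libraries and drawn side by side within a library. All 6 genes are low in the 3 non-radiated and high in the 3 radiated libraries, and Eda2r lies closest to Pck1.

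Other genes of the pathway were taken from 5 lists of 78 genes, of which 73 were tested. By edgeR 13 were called at an adjusted p under 0.05 (17.8%, against 7.8% of all tested genes), 10 higher and 3 lower, and their median log2 fold change was 0.01, against 0.00 over all genes. The lists were drawn up with earlier results of these data known. Scaling by library totals alone gave 9 higher and 1 lower.

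Glycerol and triglyceride metabolism held 5 of the 13 calls, among 12 tested genes, 3 higher and 2 lower, with a median of -0.01. Gpam, which adds the first fatty acid to glycerol 3-phosphate, was at 39.0, 38.4 and 37.4 CPM without radiation and at 54.4, 56.2 and 61.3 CPM after it. It rose by 0.58 ± 0.06 in log2 units (± SE, adjusted p 0.000791 by edgeR). Lipe, the hormone-sensitive lipase, rose by 0.76 ± 0.13 (± SE, adjusted p 0.00696 by edgeR), and Gpd1l, a relative of Gpd1, by 0.39 (adjusted p 0.0079), a call lost without non-radiated library 2 (adjusted p 0.0507) and under library totals alone (0.0844). Gk, the glycerol kinase, was at 37.7, 34.7 and 35.3 CPM without radiation and at 25.3, 25.1 and 28.8 CPM after it. The Gk transcript, the other route to glycerol 3-phosphate, fell by 0.44 ± 0.08 in log2 units (± SE, adjusted p 0.0085 by edgeR) with no overlap, a call lost under library totals alone (-0.26, adjusted p 0.698). Gpd2, the mitochondrial dehydrogenase that uses up glycerol 3-phosphate, fell by 0.25 (edgeR adjusted p 0.0309). That call stood without non-radiated library 3 but was lost without any other single library (adjusted p 0.0635 to 0.0995), with the muscle covariate (0.0772) and under library totals alone, where the value was -0.06 (0.891). Aqp9, the glycerol channel of liver and leukocytes, named after its values were seen, was at -0.28 in log2 units (adjusted p 0.0636 by edgeR, not called). It was called in 5 of the 14 alternative fits. These were no filter, the DESeq2 Wald test, the replicate block (0.0422), the muscle covariate and the fit without radiated library 2.

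Among the carriers and transaminases that move carbon between mitochondria and cytosol, 2 of 17 tested genes were called, both higher, with a list median of 0.09. Me1, the cytosolic malic enzyme, which supplies NADPH for fat synthesis, was at 4.47, 3.95 and 3.87 CPM without radiation and at 7.45, 8.43 and 6.99 CPM after it. It rose by 0.90 ± 0.13 in log2 units (± SE, adjusted p 0.00311 by edgeR). Gpt2, the mitochondrial alanine transaminase, rose by 0.77 ± 0.19 (± SE, adjusted p 0.0413 by edgeR). Its call survived the loss of radiated library 3 but not that of any other library (adjusted p 0.0804 to 0.138). With the muscle covariate the value was 0.40 (adjusted p 0.242). The call was also lost with limma-voom in place of edgeR.

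The 12 enzymes of reversible glycolysis, which both directions share, had a median log2 fold change of 0.09, and 1 of them was called higher. Eno2, the neuronal enolase, rose by 1.30 ± 0.23 in log2 units (± SE, adjusted p 0.0095 by edgeR), from 0.576 to 0.826 CPM in the non-radiated to 1.52 to 2.15 CPM in the radiated libraries. The muscle isoforms Eno3 and Pgam2, named after their values were seen, were at 87.2 and 19.9 CPM in radiated library 2 and at 12.4 and 1.32 CPM in radiated library 3. Neither was called (adjusted p 0.122 and 0.0833 by edgeR), but both were without radiated library 3 (0.00621 and 0.00762), with no filter and under library totals alone, and Pgam2 also with the replicate block (0.0116). With the muscle covariate their log2 fold changes were -0.08 and 0.16.

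None of the 12 tested enzymes of one-way glycolysis, the steps that gluconeogenesis bypasses, was called by edgeR, although 6 had an unadjusted p under 0.05. The median was -0.14, and DESeq2 called 2, Hk1 and Hk3, both lower. With no filter on low counts edgeR called Hk3 (adjusted p 0.0308). With the replicate block 1 was called, Hk1, at -0.24 (adjusted p 0.0405, 0.103 without the block). Without non-radiated library 1 the call was Hk3 (-0.35, adjusted p 0.0254) and without radiated library 2 it was Pklr (-0.31, adjusted p 0.0381), all 3 named after their values were seen.

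Among 20 tested regulators of Pck1, 4 were called, all higher, with a list median of 0.07. Irs1, an adaptor of insulin signalling, the pathway that represses Pck1, rose by 0.57 ± 0.09 in log2 units (± SE, adjusted p 0.00625 by edgeR). Foxo1, a transcription factor that activates Pck1 in liver and is held back by insulin, was at 54.8, 48.1 and 50.7 CPM without radiation and at 73.7, 67.1 and 79.97 CPM after it. It rose by 0.52 ± 0.08 (± SE, adjusted p 0.00384 by edgeR). Rxra and Pparg, the partners in the receptor pair that drives Pck1 in fat, rose by 0.38 and 0.35 (edgeR adjusted p 0.0199 and 0.0451). The call of Rxra stood without non-radiated library 3 or radiated library 3 and was lost without each of the other 4 (adjusted p 0.0531 to 0.0853). That of Pparg stood without radiated library 3 alone (0.0323, elsewhere 0.0735 to 0.17). Both were also lost with the muscle covariate (0.109 and 0.218) and under library totals alone (0.104 and 0.165). Irs1 and Foxo1 were called in each of the 14 alternative fits.

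**Figure D5:**
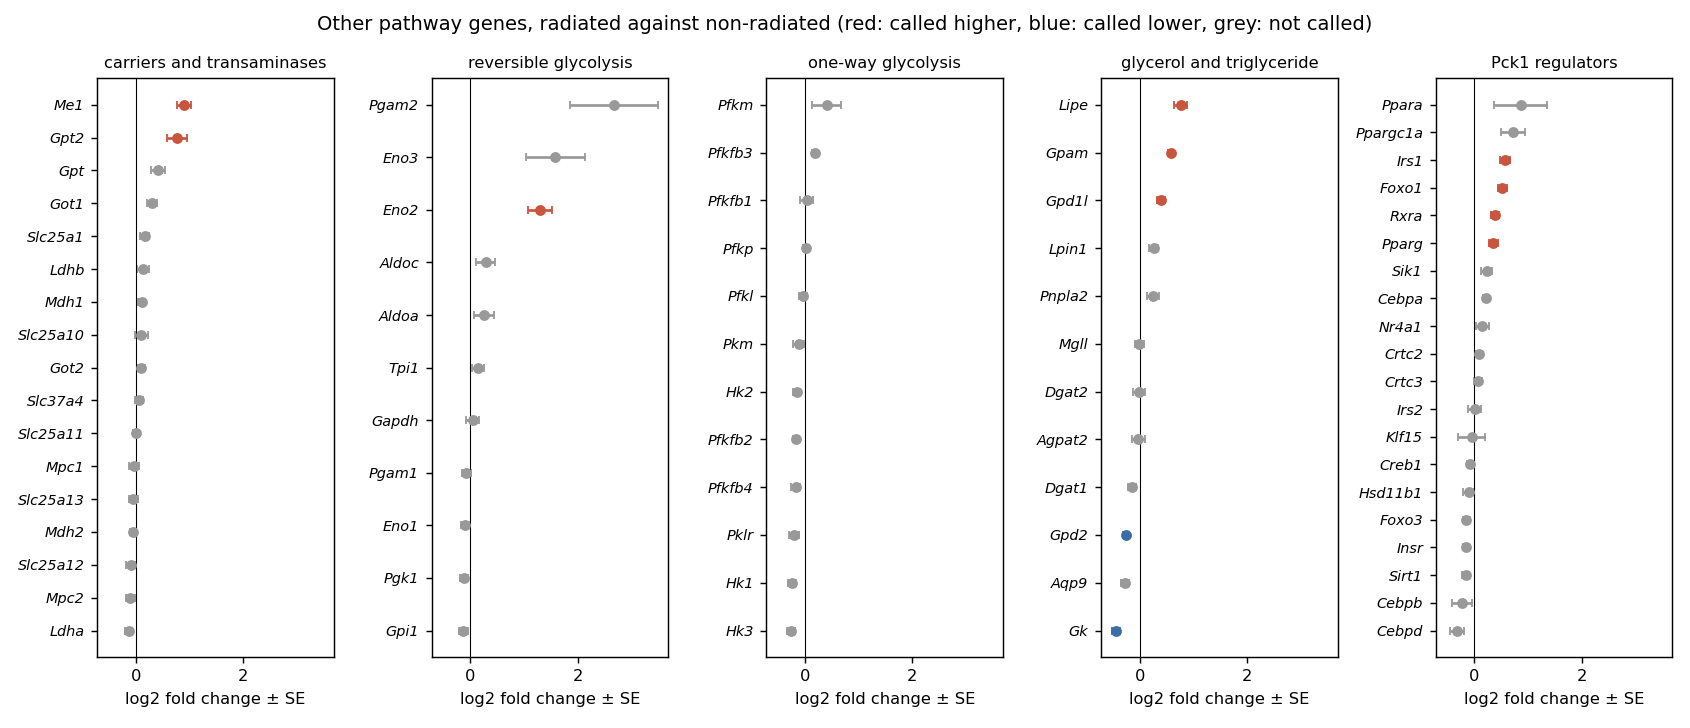
Log2 fold change with its SE for tested genes of 5 pathway lists, radiated against non-radiated; red points were called higher, blue lower and grey not called by edgeR at an adjusted p under 0.05. The wide bars of Pgam2 and Eno3 go with their spread among the radiated libraries.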

How the data were processed

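RNA-seq libraries of femur, 3 in each group, were analysed. Per the labels' protocols, RNA was taken from homogenized bone on silica columns and made into stranded mRNA libraries. The authors deposited raw counts per gene, and the submitters' processing notes list bcl2fastq, STAR 2.5.2b, Subread, featureCounts and build mm10; annotation, filters and strand setting are not given in the sources used here. The authors also deposited RPKM values, which imply library sizes 5.55 to 6.91 times as large as the counts do, for a reason that is not stated, so they were not used. Gene lengths are those of the deposited table.

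The tests ran in R 4.3.3 with edgeR 4.0.16 on the counts: filterByExpr (minimum count 10, minimum total 15), TMM, glmQLFit and glmQLFTest on group, with Benjamini-Hochberg adjustment over 18757 genes and a threshold of 0.05. The SE was taken as the size of the log2 fold change over root F. Variation between libraries of a group beyond counting error came to a coefficient of 12.9%, and it may be partly technical. Log2 CPM for profiles used a prior count of 2. The members and lists were chosen with earlier results of these data known. All 8 members, list genes that were called and the nearest profiles were to be named; nearest genes of Pck2, Pcx, Fbp1 and G6pc3 and 1 called list gene, also left out of the plot of pathway genes, are not reported here. Gk and Adgre1 were matched by gene ID.

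The alternatives were DESeq2 1.42.0 size factors and Wald test, library totals alone, no filter, a mean of at least 1 CPM, limma-voom 3.58.1, a muscle marker covariate, a block for the replicate number, and leaving out each library. Deviations from group means correlated at 0.166, 0.277 and 0.187 for equal numbers and at -0.17 to -0.00824 for unequal ones, across genes. Deviations from a group mean cancel within the group, so the values for unequal numbers largely follow from the others and add little. Equal numbers may mark pairs, but the reported values come from the fit on group alone, and the block is an alternative. Replicates differed by far more than sampling noise (chi-square per degree of freedom 16.6 to 580, on raw counts scaled by library totals). The highest, 580 and 492, were the pairs with non-radiated library 2. Pairs with radiated library 2 were at 121 and 111, and the remaining pairs at 42.3 and 16.6.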

Additional observations from a re-analysis of the deposited data

How the results depend on the processing

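Pck1, Aqp7 and Gpd1 were called higher in each of the 14 alternative fits, and the other tested members in none; with no filter Fbp2 was also called, and its call was lost in both fits added after the data were seen (1.17 without radiated library 2 and 0.19 with the muscle covariate, log2). Signs turned for Pck2 (0.0526) and G6pc3 (0.0368) under library totals alone and for Pcx with the muscle covariate (-0.0853) and without radiated library 2 (-0.0111, against up to 0.165 without another library); the cause was not tested. Library totals alone moved the median over all genes from 0.00232 to 0.195 in log2 units and the split of calls from 856 higher and 607 lower to 854 and 146. Leaving out 1 library gave 764 to 1376 called genes against 1463, with fewer samples in the fit, the lowest without radiated library 1. The next were 819 and 905, with number 2 and number 1 of the non-radiated group left out. The 13 called pathway genes became 8 to 15, the lowest without non-radiated library 2, and 2 of the 4 calls among regulators were lost on leaving out number 1 or 2 of either group. The replicate block gave 1670 called genes, 3 members and 16 pathway genes, and it ended no call of a member or of the 13 pathway genes. With 11 to 19 counts of Pck1 and 1 to 3 of Fbp2 in a non-radiated library, depth limits the precision of their folds.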
